A study of Mus musculus with 21 samples.

Results

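RNA was compared between E14 mouse embryonic stem cells carried for 7 days with vehicle (3 libraries, vehicle day 7) and the same line carried for 5 days with vehicle (3 libraries, vehicle day 5), together 6 of the 21 libraries of the series. The members were taken by the column names of the deposited tables, which match the sample labels. No library of either group received pyridoxine (vitamin B6, VB6). The sources used here state neither what the vehicle was nor how differentiation was started. Groups of 3 libraries each from the rest of the series served as side values: VB6 day 5 (20 µM pyridoxine for 5 days), vehicle day 3, and E14 cells in their usual stem cell culture (ES). E14 is a single cell line. Whether replicate libraries stem from independent cultures is not stated in the labels, so the p-values measure only the spread between these libraries, which may be technical. In bulk RNA, fewer cells of a type and less RNA per cell cannot be told apart.

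Embryonic stem cells hold the state of the early epiblast through a small set of transcription factors, chiefly the products of Pou5f1, Sox2 and Nanog. When they are let go, they pass through a formative state marked by Otx2, Fgf5 and Dnmt3b and then enter the germ layers: endoderm, mesoderm and ectoderm. The extraembryonic visceral endoderm, which also forms in such cultures, secretes the same carrier proteins as the later fetal liver, so alpha-fetoprotein and the apolipoproteins mark both.

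Total expected counts were 17042446 to 17975325 in vehicle day 7 libraries and 17416073 to 18326326 in vehicle day 5 libraries, so depth differed little between the days. Other library properties did differ. The fragment length implied by the deposited values was 308 ± 5.84 nt in vehicle day 7 libraries and 227 ± 8.69 nt in vehicle day 5 libraries (SD, n = 3 each), and vehicle day 5 was the shortest of the 7 groups. The mean GC content of counted genes ran from 49.7 to 50.1% in vehicle day 7 libraries and from 47.9 to 48.2% in vehicle day 5 libraries. Mitochondrially encoded genes took 1.95 to 2.28% of counts in vehicle day 7 libraries, against 4.08 to 4.47% in vehicle day 5 libraries, and ribosomal protein genes took 5.21 to 5.88% against 3.24 to 3.53%. The VB6 day 7 libraries shared these traits in part, with implied fragments of 266 ± 7.77 nt (SD, n = 3). Their mitochondrially encoded share averaged 3.32% and their ribosomal protein share 3.27%. The day and these properties cannot be told apart within the vehicle libraries. The comparison was therefore made uncorrected, corrected for GC content and length, and with the VB6 day 5 libraries, whose fragments were as long as those of vehicle day 7, in place of vehicle day 5. The last also changes the treatment, and all 3 comparisons share the vehicle day 7 libraries.

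Of 18901 genes tested, 12526 (66.3%) passed an adjusted p of 0.05 in edgeR's quasi-likelihood test with Benjamini-Hochberg adjustment, 6652 of them higher (35.2%) and 5874 lower (31.1%) at day 7. After correction, which could be made for 16487 genes, 10312 passed (62.5%), 4950 higher (30.0%) and 5362 lower (32.5%). Tested against a minimum fold of 2, 2277 genes passed uncorrected (1261 higher, 6.67%, and 1016 lower, 5.38%) and 1260 passed corrected (561 higher, 3.40%, and 699 lower, 4.24%). Against VB6 day 5, 6373 genes passed (33.7%; 17.3% higher and 16.5% lower), 268 of them higher (1.42%) and 215 lower (1.14%) beyond 2-fold. Against vehicle day 3, over a longer gap, 12747 passed (67.4%; 34.3% higher and 33.1% lower), with 1966 higher (10.4%) and 1879 lower (9.94%) beyond 2-fold. A rise or fall given below by a bare number is a log2 fold change, uncorrected unless stated, and ± after it is its SE. Where only the uncorrected value of a called gene is given, the corrected one was called too, in the same direction and within 1.5 times of it. Since most genes passed, a call by itself says little, and the size of a change and its value in all 3 comparisons carry more. Counts of list members given below are to be read beside these shares of all genes.

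The uncorrected fold change followed base composition. Over bins of equal size by GC content, the median log2 fold change was -0.74 in the bin lowest in GC and 0.86 in the highest, and over bins by length it was 0.48 in the shortest genes and -0.19 in the longest. Corrected, the medians over GC bins lay between -0.05 and 0.04, which the correction brings about by its construction. Against VB6 day 5 they lay between -0.07 and 0.05 with no correction made. Among the genes in both fits, 7531 were called in the same direction and 838 in opposite directions. The median signed shift of the log2 fold change was -0.16 with the correction and -0.20 with the deposited TPM. Shifts up and down cancel in these medians, so they do not measure how far single genes moved. Apoe, for example, moved from 2.01 uncorrected to 1.03 corrected. Of the genes that limma called on TPM, 37.8% were higher, against 53.1% of those called in the uncorrected fit.

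**Figure D1:**
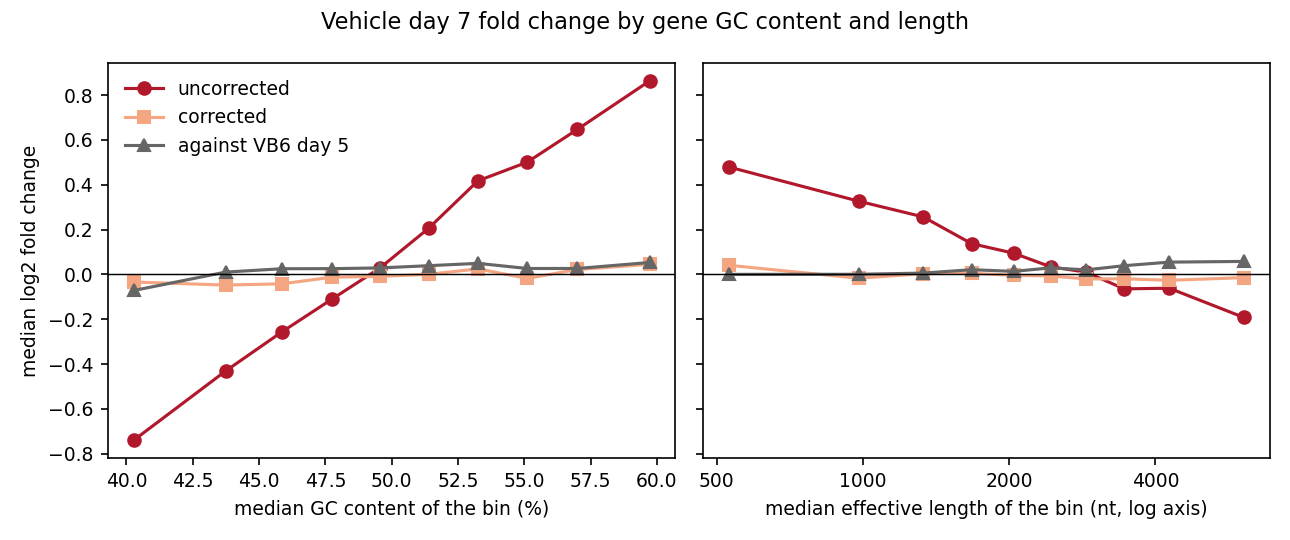
Median log2 fold change of vehicle day 7 over day 5 (vertical axis) in equal bins of genes ordered by GC content in percent (left) and effective length in nucleotides on a log axis (right), for the uncorrected and corrected comparisons with vehicle day 5 and for the uncorrected comparison with VB6 day 5. The uncorrected line climbs from -0.74 to 0.86 over GC content, while the other lines stay between -0.07 and 0.06.

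**Figure D2:**
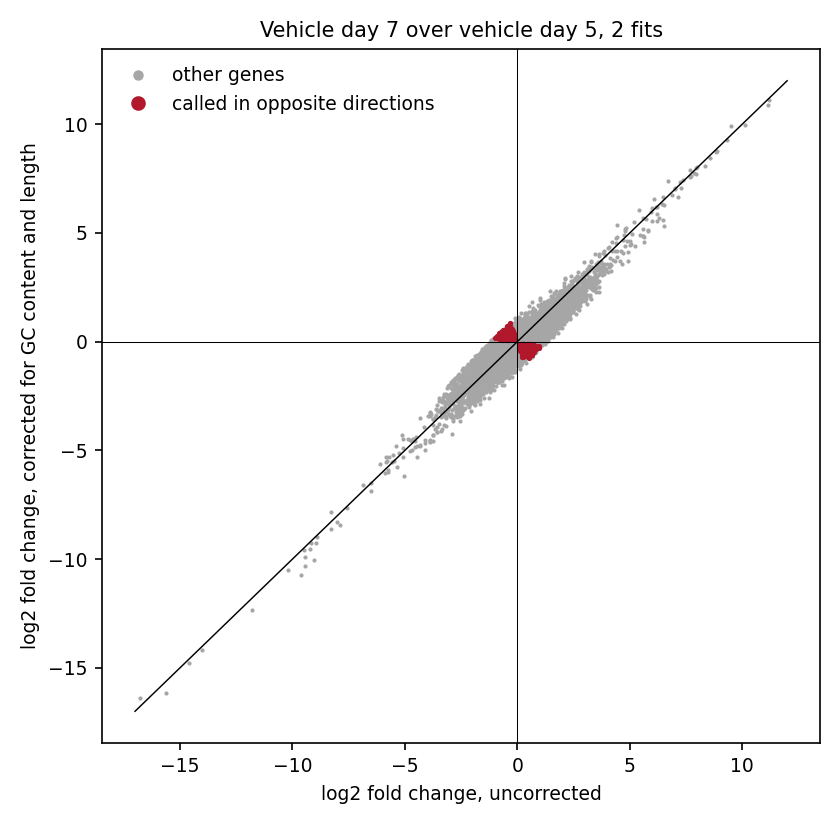
Log2 fold change of vehicle day 7 over vehicle day 5 for each of 16487 genes without correction (horizontal axis) and with correction for GC content and length (vertical axis); the diagonal marks equal values. The 838 genes called in opposite directions, in red, lie close to the origin, and large changes sit near the diagonal.

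Genes of the pluripotency network were lower at day 7. Of the 14 general pluripotency genes, all tested, 9 fell and 1 rose uncorrected, 13 fell and 1 rose corrected, and 13 fell against VB6 day 5, where 31.1%, 32.5% and 16.5% of all genes tested fell. Their median log2 fold change was -1.20 uncorrected and -1.47 corrected, beside medians of 0.02 and -0.03 over all genes. Pou5f1 (chr17:35506018-35510772; mm10, as are all gene positions here), which encodes the factor OCT4, was at 77.1, 85.0 and 66.4 CPM (counts scaled to the library's size, with TMM factors) in the vehicle day 7 libraries, against 198, 195 and 228 in the vehicle day 5 libraries. Every day 7 library lay below every day 5 library, a separation of the groups seen, in one direction or the other, in 70.2% of genes tested. The log2 fold change was -1.44 ± 0.08 (SE; edgeR, adjusted p = 4.72e-13) uncorrected and -2.003 ± 0.07 (edgeR, adjusted p = 2.32e-17) corrected. Cripto, a membrane co-receptor for Nodal (chr9:110939603-110946158), was at 23.6, 25.0 and 18.4 CPM at day 7 and 169, 170.0 and 172 CPM at day 5. It had the largest fall of the list, with log2 fold changes of -2.93 ± 0.08 uncorrected and -2.83 ± 0.07 corrected (edgeR, adjusted p = 1.03e-17 and 4.73e-19), and the libraries did not overlap. L1td1, an RNA-binding protein of stem cells, and Dppa2, a chromatin factor of the early embryo, fell, with log2 fold changes of -1.52 and -2.23. Lin28a and Sall4, which hold back let-7 maturation and sustain Pou5f1 expression, had values of -0.00 ± 0.05 and 0.03 ± 0.08 uncorrected, inside the spread, and fell once corrected, with -0.44 and -0.40.

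The naive genes, which mark the pre-implantation state, did not move together. Of 14 tested, 7 fell and 4 rose uncorrected, and 6 fell and 2 rose corrected. Nanog was at 49.8, 52.4 and 47.8 CPM at day 7 and 147, 159 and 145 CPM at day 5, and Fgf4, the growth factor that pushes these cells out of the naive state, was at 6.15, 5.89 and 6.37 CPM and 25.0, 20.0 and 25.5 CPM. Neither gene's libraries overlapped between the days, and the log2 fold changes were -1.59 ± 0.09 for Nanog and -1.94 ± 0.11 for Fgf4 (edgeR, adjusted p = 3.53e-13 and 2.61e-13). Klf4, a naive factor also expressed in differentiated epithelia, rose, with 20.1, 15.4 and 17.8 CPM at day 7 and 6.21, 5.24 and 5.09 CPM at day 5, by a log2 of 1.69 ± 0.17 uncorrected and 0.82 ± 0.15 corrected. Zfp42, a stem cell zinc-finger gene, was not called, at 20.8, 18.6 and 18.8 CPM at day 7 and 22.5, 17.9 and 17.6 CPM at day 5. Sox2, shared by stem cells and neural progenitors, is one of the genes named whose direction hung on the day 5 group. It had 119.9, 97.2 and 94.8 CPM in vehicle day 7 libraries against 62.5, 60.5 and 61.4 CPM in vehicle day 5 libraries, a log2 fold change of 0.76 ± 0.11. The VB6 day 5 libraries averaged 134 CPM, and against them the log2 fold change was -0.36 ± 0.10 (edgeR, adjusted p = 0.00777), so the direction turned.

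Most formative genes fell too. Of 12 formative and primed epiblast genes, all tested, 9 fell and 1 rose uncorrected, 11 fell and 1 rose corrected, and 10 fell against VB6 day 5; the medians were -0.66, -1.32 and -0.89. Otx2, the homeobox factor of the formative epiblast (chr14:48657677-48673819), was at 66.5, 67.2 and 61.5 CPM at day 7 and 191, 184 and 188 CPM at day 5. Fgf5, a growth factor of the post-implantation epiblast, was at 36.8, 44.0 and 36.5 CPM and 134, 141 and 137 CPM, and Dnmt3b, the de novo DNA methyltransferase of that stage, at 298, 292 and 264 CPM and 870.1, 884 and 916 CPM. In each, all day 7 libraries lay below all day 5 libraries. The log2 fold changes were -1.53 ± 0.07, -1.81 ± 0.09 and -1.64 ± 0.08 uncorrected and -1.58 ± 0.06, -2.09 ± 0.09 and -1.94 ± 0.06 corrected (edgeR, largest adjusted p = 3.48e-13). Over the vehicle course Fgf5 averaged 0 CPM in ES, 92.2 at day 3, and the day 5 value was the highest of the 4 times. Zic5, a zinc-finger factor of epiblast and dorsal neural tube, fell by 1.63.

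Genes of Nodal and activin signalling, the pathway that maintains this stage, held more falls than rises. Of 16 genes, all tested, 7 fell and 3 rose uncorrected and 10 fell and 3 rose corrected, with a median of -0.17 and -0.81. Among its targets and ligands, Lefty2, an inhibitor that Nodal induces, had 7.48, 6.36 and 6.88 CPM at day 7 and 22.2, 23.9 and 23.9 CPM at day 5, and Gdf3, a ligand of the family, had 2.49, 1.98 and 2.26 CPM and 7.67, 7.26 and 9.29 CPM. Both were lower in every day 7 library, with log2 fold changes of -1.76 ± 0.12 and -1.84 ± 0.15 uncorrected and -2.45 ± 0.13 and -2.15 ± 0.15 corrected. Skil, which restrains the pathway's SMAD proteins, fell by 1.69, and the receptor genes Acvr1b and Acvr2b were not called uncorrected, at 0.04 ± 0.06 and 0.17 ± 0.10, and fell corrected, with -0.28 and -0.55. Etv5, a target of FGF and ERK signalling, fell by 1.22, while the ERK phosphatase Dusp6 had a log2 fold change of 0.04 ± 0.07 and was not called.

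Primitive streak genes, which mark the cells that leave the epiblast to form mesoderm and endoderm, split. Of 12 tested, 6 rose and 3 fell uncorrected, whereas 2 rose and 5 fell corrected, and limma on the deposited TPM gave 4 each way. Eomes, a T-box factor of the streak and early endoderm, was at 18.6, 21.2 and 14.9 CPM at day 7 and 41.3, 41.2 and 40.7 CPM at day 5, with no overlap, and the log2 fold change was -1.17 uncorrected and -1.71 corrected. T (Brachyury), the defining gene of the streak, was low in both groups, at 4.98, 6.36 and 4.00 CPM at day 7 and 3.62, 5.47 and 2.24 CPM at day 5. These ranges overlapped and the adjusted p was 0.244 (edgeR). Against VB6 day 5, with a mean of 1.14 CPM, T was higher by a log2 of 2.14 ± 0.38 (edgeR, adjusted p = 1.002e-04).

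**Figure D3:**
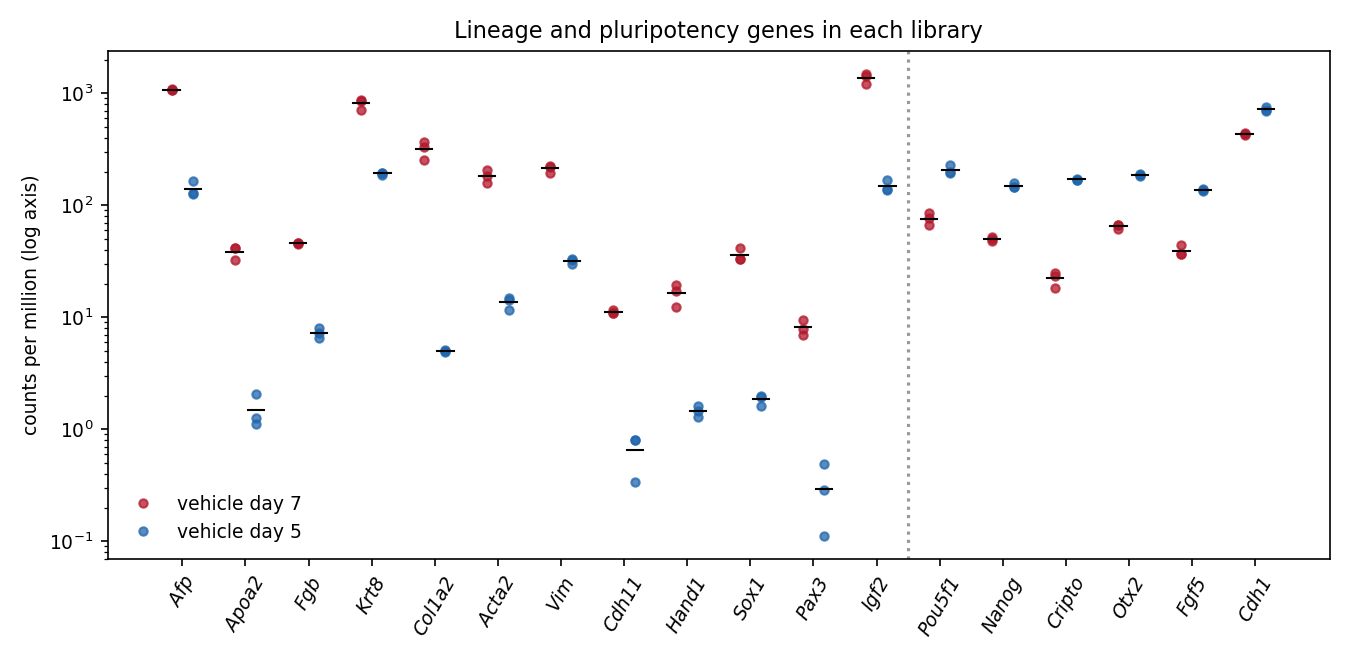
CPM (log axis) of 18 genes in each library, vehicle day 7 in red left of vehicle day 5 in blue, with a black line at each group's mean of 3. In the 12 genes left of the dotted line every day 7 library lies above every day 5 library, and in the 6 on the right every one lies below.

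Most apolipoprotein, plasma carrier and coagulation genes, whose products visceral endoderm and liver secrete, rose, and Apoe and Afp were among the 8 largest gains in CPM. All 13 apolipoprotein and lipoprotein genes tested (of 15 listed) rose uncorrected, 12 of 13 corrected and 10 of 13 against VB6 day 5, with medians of 1.94, 1.03 and 0.47. Of 8 plasma carrier genes tested (of 13 listed), 6 rose and 1 fell, and of 16 coagulation and fibrinolysis genes tested (of 19), 13 rose and 1 fell. After correction these counts were 5 and 1 of 7, and 12 and 1 of 16. Against VB6 day 5, 5 carrier genes rose and 1 fell, and 11 coagulation genes rose and 1 fell. The complement and protease inhibitor genes, also secreted by liver, did not move together: of 6 tested (of 12 listed), 3 rose and 1 fell uncorrected, 3 rose and 3 fell corrected, and 2 rose and 2 fell against VB6 day 5. A2m, the protease inhibitor alpha-2-macroglobulin, fell, with 5.87, 5.02 and 4.62 CPM at day 7 and 15.0, 14.1 and 18.4 CPM at day 5, a log2 fold change of -1.61 ± 0.15. Alb, the gene of adult serum albumin, had no count in any vehicle day 7 library and 1 count in 1 vehicle day 5 library, too few to be tested.

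Afp, the gene of alpha-fetoprotein (chr5:90490737-90508907), was at 1088, 1076 and 1074 CPM at day 7 and 164, 130.0 and 127 CPM at day 5. The groups lay far apart with little spread inside either, and the log2 fold change was 2.94 ± 0.12 uncorrected, 3.20 ± 0.11 corrected and 2.02 ± 0.12 against VB6 day 5 (edgeR, adjusted p = 2.24e-14, 1.49e-16 and 2.46e-11). Rbp4, the plasma carrier of retinol (chr19:38116629-38125281), was at 430.0, 437 and 451 CPM at day 7 and 50.5, 37.3 and 35.5 CPM at day 5, again apart, with 3.42 ± 0.15 uncorrected and 2.50 ± 0.14 corrected. The promoters of both are shown because these are the carrier genes with the highest counts and both hold a TATA box. They run from 250 bases before to 50 bases after the annotated start, 5′ to 3′ on the strand of the gene, from RefSeq on GRCm38.p6, with the letters TATAAA in capitals. The Afp window is chr5:90490464-90490763 on the + strand and the Rbp4 window is chr19:38124762-38125061 on the - strand, the one of the table's 2 Rbp4 promoters that holds the motif.
Afp: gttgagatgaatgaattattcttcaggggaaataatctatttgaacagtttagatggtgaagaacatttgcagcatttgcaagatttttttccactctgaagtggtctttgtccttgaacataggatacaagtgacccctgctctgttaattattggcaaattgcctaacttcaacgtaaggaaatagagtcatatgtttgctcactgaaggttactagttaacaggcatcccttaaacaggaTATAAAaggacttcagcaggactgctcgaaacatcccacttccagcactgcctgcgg
Rbp4: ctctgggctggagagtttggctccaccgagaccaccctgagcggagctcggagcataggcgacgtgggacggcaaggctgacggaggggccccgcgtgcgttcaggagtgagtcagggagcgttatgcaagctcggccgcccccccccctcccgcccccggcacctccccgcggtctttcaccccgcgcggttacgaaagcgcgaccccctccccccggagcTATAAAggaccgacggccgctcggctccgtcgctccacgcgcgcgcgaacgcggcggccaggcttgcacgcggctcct
In these windows the TATA box begins 7 bases before the RefSeq start of Afp and 28 before that of Rbp4. These starts differ from the gene starts given above, which come from GENCODE, and the RefSeq start of Afp lies upstream of chr5:90490737. The distance to the motif therefore depends on the annotation. TATAAA, on either strand, was in 13.6% of all 32851 promoters of this length in the table. The other motifs searched, on both strands, were HNF1 in 0.00913% of promoters, HNF4 (CAAAGTCCA) in 0.475%, the CArG box in 1.63%, and the site of GATA factors, with the letters AGATAA, in 11.2%.

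Among the other secreted products, Ttr, the transthyretin that carries thyroid hormone and the retinol-binding protein, was at 193, 203 and 189 CPM at day 7 and 37.4, 34.4 and 36.7 CPM at day 5, a log2 change of 2.43 ± 0.10 uncorrected and 2.45 ± 0.09 corrected. Trf, the iron carrier transferrin, rose by 2.85. Gc, the carrier of vitamin D, was not called, at 1.16, 1.87 and 1.41 CPM at day 7 and 1.62, 1.21 and 0.671 CPM at day 5, so the carriers did not all move. Apoa2, a protein of high-density lipoprotein (chr1:171225054-171226379), was at 32.7, 41.3 and 41.5 CPM at day 7 and 2.05, 1.27 and 1.12 CPM at day 5, one of the 12 largest rises among abundant protein-coding genes, with 4.69 ± 0.26 uncorrected and 4.06 ± 0.22 corrected (edgeR, adjusted p = 3.11e-13 and 7.34e-14). Apoe, which carries lipid between cells, had the largest gain in CPM of any protein-coding gene called in both fits, with 2165, 2013 and 1694 CPM at day 7 and 489, 452 and 513 CPM at day 5. Its size depended on the comparison: 2.01 ± 0.10 uncorrected, 1.03 ± 0.08 corrected and 0.47 ± 0.09 against VB6 day 5, whose libraries averaged 1415 CPM. In length-scaled units Apoe averaged 4513 ± 605 TPM at day 7 and 1077 ± 57.6 TPM at day 5, against 818 ± 20.8 and 124 ± 20.5 TPM for Afp (SD, n = 3 each), so the level of Apoe per length exceeded that of Afp on both days.

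In the clotting system, Fgb, the beta chain of fibrinogen, was at 45.4, 46.5 and 46.1 CPM at day 7 and 8.10, 7.31 and 6.49 CPM at day 5, a log2 change of 2.65 ± 0.15 (edgeR, adjusted p = 5.05e-13). F3, the tissue factor that starts clotting, rose by 2.12, and Plat, tissue plasminogen activator, by 2.29. F3 and Plat are also made by stromal and endothelial cells, and the part of each cell type was not tested. Serpinc1, the gene of antithrombin, had 4.71, 5.43 and 4.68 CPM at day 7 and 4.81, 4.15 and 4.64 CPM at day 5 and was not called.

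Of 14 definitive endoderm genes, 10 rose and 2 fell uncorrected, 7 rose and 3 fell corrected, and 7 rose and 2 fell against VB6 day 5. Sox17, which specifies endoderm, was at 46.4, 39.3 and 36.9 CPM at day 7 and 11.9, 10.5 and 8.95 CPM at day 5, and Foxa2, a pioneer factor of endoderm, at 36.3, 31.8 and 29.3 CPM and 9.29, 10.7 and 8.73 CPM. The groups did not overlap in either gene. The log2 fold changes of Sox17 and Foxa2 were 1.96 ± 0.12 and 1.76 ± 0.12 uncorrected, 1.21 ± 0.11 and 0.998 ± 0.11 corrected, and 0.33 ± 0.11 and 0.70 ± 0.11 against VB6 day 5. Krt8, the simple-epithelium keratin that accompanies endoderm, was at 869, 717 and 862 CPM at day 7 and 196, 196 and 188 CPM at day 5 (2.08 ± 0.09 uncorrected, 1.47 ± 0.06 corrected), and its partner Krt18 rose by 1.84 and 1.19. Hhex and Foxa1, factors of foregut and liver, were not called in either fit.

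Of 16 hepatic transcription factors tested (of 17 listed), 9 rose and none fell uncorrected, 6 rose and 3 fell of 15 corrected, and 4 rose and none fell against VB6 day 5. Cebpb, a factor of liver and acute-phase genes, had 34.7, 19.9 and 22.0 CPM at day 7 and 5.08, 5.59 and 4.98 CPM at day 5 and rose by 2.29 ± 0.20 uncorrected and 1.08 ± 0.15 corrected, but was not called against VB6 day 5, at 0.38 ± 0.17. Gata4, shared by endoderm and heart, rose by 0.76 and 0.28. Hnf4a, the master factor of hepatocytes and visceral endoderm, was at 66.4, 67.6 and 58.3 CPM at day 7 and 47.1, 40.6 and 44.6 CPM at day 5, which did not overlap and gave 0.54 ± 0.08 uncorrected (edgeR, adjusted p = 1.25e-06). Corrected, the value was 0.05 ± 0.07 (edgeR, adjusted p = 0.577), and against VB6 day 5 it was -0.10 ± 0.07. Gata6, which opens the endoderm program, turned direction, with 0.40 ± 0.11 uncorrected and -0.31 ± 0.12 corrected (edgeR, adjusted p = 0.00302 and 0.0222). Neither was called in limma on the deposited TPM (0.04 for Gata4 and 0.18 for Gata6) or against VB6 day 5 (0.11 and 0.09). Of 12 genes of the endocytic machinery by which visceral endoderm takes up maternal nutrients, 7 rose and 3 fell uncorrected, but 5 did each in limma on the deposited TPM, and 2 rose and 1 fell against VB6 day 5. Amn, a subunit of the cubilin receptor, had a log2 fold change of 1.78 ± 0.11 uncorrected, 0.62 ± 0.08 corrected and 0.10 ± 0.11 against VB6 day 5, where it was not called.

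In the list of later gut, lung and pancreas genes, most of those that could be tested rose from low levels. Pdx1, Nkx2-1, Pax9 and Cdx4 of this list had too few counts to be tested. The members named below are not restricted to lung or pancreas, so the list does not show a rise of either. Of 10 tested (of 14 listed), 9 rose beyond 2-fold uncorrected and 6 of 9 did so corrected, against 6.67% and 3.40% of all genes, and 9 of 10 were called higher against VB6 day 5. Cdx2, a homeobox factor of hindgut and trophoblast, was at 7.64, 7.65 and 7.28 CPM at day 7 and 1.08, 1.15 and 0.895 CPM at day 5, a log2 change of 2.84 ± 0.24 uncorrected and 2.24 ± 0.23 corrected. Ihh, the hedgehog ligand of gut and visceral endoderm, was at 26.5, 18.97 and 18.5 CPM and 4.64, 3.40 and 4.92 CPM and rose by 2.30 ± 0.14 uncorrected and 1.27 ± 0.13 corrected. In both genes every day 7 library lay above every day 5 library. Vil1, a brush-border protein, rose by 1.49, and Sox21, a factor of foregut and of neural tissue, by 3.89 uncorrected and 3.26 corrected. Of 8 trophoblast and surface ectoderm genes tested (of 14 listed), 7 rose and 1 fell uncorrected, corrected and against VB6 day 5. Cdx2 was among those that rose. The trophoblast markers Tpbpa and Prl3d1, on the same list, were at 0 in both groups and were not tested.

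**Figure D4:**
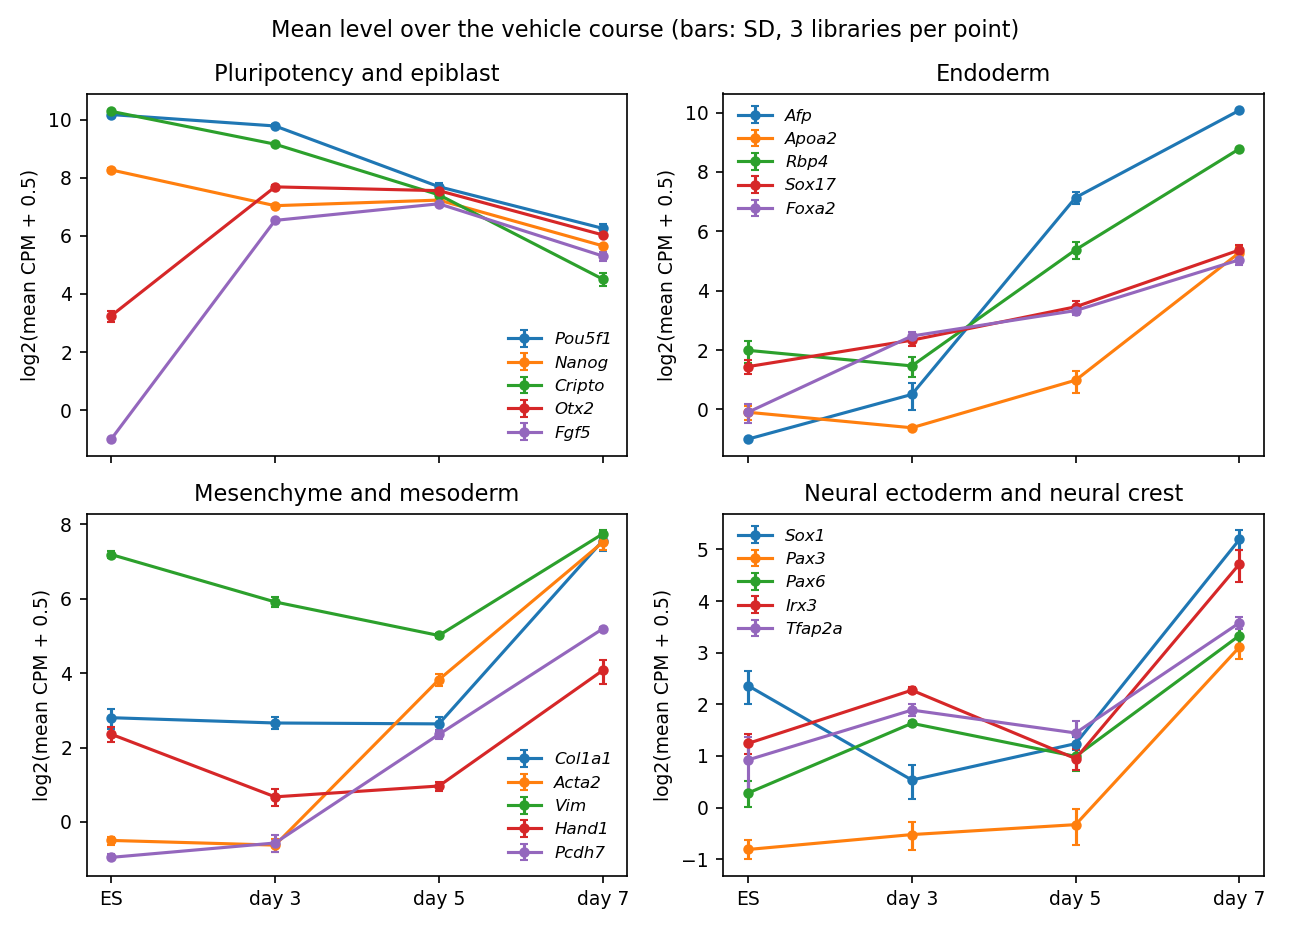
Mean level in log2(CPM + 0.5) of 20 genes in ES cells and at days 3, 5 and 7 of the vehicle course, with bars of 1 SD over 3 libraries. Epiblast genes peak before day 7 and are lower at day 7 than at day 5, endoderm genes climb over days 3 to 7, and Col1a1, Sox1 and Pax3 climb mainly between days 5 and 7.

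Stromal genes held some of the largest fold changes, with Postn, Col1a2 and Col1a1 among the 12 largest rises. Of 15 fibrillar and associated collagen genes tested (of 16 listed), 12 rose and 1 fell uncorrected, and 11 rose and 1 fell of 13 corrected. Their medians were 2.62 and 2.45, and 1.40 against VB6 day 5, where 10 rose and 2 fell. Col1a2 (chr6:4504814-4541544), which encodes a chain of type I collagen, was at 333, 254 and 370.4 CPM at day 7 and 4.86, 5.01 and 5.15 CPM at day 5. Col1a1 (chr11:94936224-94953042), its partner chain, was at 209, 149.8 and 205 CPM and 6.75, 5.36 and 5.04 CPM. The lowest day 7 library stood many times above the highest day 5 library in both. Their log2 fold changes were 5.99 ± 0.19 and 5.03 ± 0.19 uncorrected, 6.17 ± 0.18 and 4.65 ± 0.16 corrected, and 4.32 ± 0.16 and 2.94 ± 0.16 against VB6 day 5 (edgeR, largest adjusted p = 2.58e-12). Col2a1, the collagen of cartilage and notochord, rose by 3.51 uncorrected and 2.75 corrected, and Col5a1, which starts fibril assembly, by 2.95 and 2.45. Col5a3 went the other way when corrected, at -0.55 ± 0.27 uncorrected, where it was not called, and -1.29 ± 0.26 corrected.

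Postn, the matrix protein periostin of fibroblasts (chr3:54361109-54391037), was at 10.8, 9.28 and 11.1 CPM at day 7 and 0.108, 0 and 0.336 CPM at day 5. Its day 5 values rest on a handful of counts, and 1 library had none. The fitted log2 fold change was 6.06 ± 0.36 uncorrected and 6.58 ± 0.35 corrected (edgeR, adjusted p = 2.34e-11 and 1.10e-12). Vim, the intermediate filament vimentin of mesenchyme (chr2:13573927-13582826), was at 225, 195 and 219.7 CPM at day 7 and 32.9, 32.2 and 30.1 CPM at day 5, and the log2 fold change was 2.75 ± 0.11 uncorrected, 2.26 ± 0.09 corrected and 2.27 ± 0.10 against VB6 day 5. The day 5 value was the lowest of the vehicle course, since ES cells averaged 145 CPM and vehicle day 3 59.7 CPM. The promoters of Postn and Vim also hold a TATA box and are printed for comparison with those of the endoderm genes, from the same RefSeq table. The windows are chr3:54360857-54361156 for Postn, the one of its 2 promoters with the motif, and chr2:13574061-13574360 for Vim, both on the + strand.
Postn: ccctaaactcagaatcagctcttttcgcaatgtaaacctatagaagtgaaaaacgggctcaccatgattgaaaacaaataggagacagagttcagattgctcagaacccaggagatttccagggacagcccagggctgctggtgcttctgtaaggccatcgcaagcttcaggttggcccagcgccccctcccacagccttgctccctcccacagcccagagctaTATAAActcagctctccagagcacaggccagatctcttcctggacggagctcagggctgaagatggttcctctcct
Vim: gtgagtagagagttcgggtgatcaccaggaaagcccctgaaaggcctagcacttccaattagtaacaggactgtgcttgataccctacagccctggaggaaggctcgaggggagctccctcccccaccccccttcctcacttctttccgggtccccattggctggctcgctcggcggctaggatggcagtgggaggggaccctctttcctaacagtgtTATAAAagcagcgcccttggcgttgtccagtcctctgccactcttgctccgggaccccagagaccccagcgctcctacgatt
The capitals again mark TATAAA, which begins 26 bases before the RefSeq start of Postn and 32 before that of Vim.

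The machinery that folds and crosslinks collagen rose with the chains: 13 of 17 genes rose and none fell uncorrected, 13 rose and 1 fell of 16 corrected, and 13 rose and 1 fell against VB6 day 5. Serpinh1, the collagen chaperone HSP47, was at 607, 509.6 and 567 CPM at day 7 and 137, 126 and 124 CPM at day 5, a log2 change of 2.12 ± 0.08 uncorrected and 1.43 ± 0.06 corrected. Plod2, a lysyl hydroxylase low in GC content, was not called uncorrected at 0.10 ± 0.08 and rose corrected, at 0.63 ± 0.06. Of 19 stromal glycoprotein genes, 14 rose and 3 fell uncorrected, 13 rose and 4 fell corrected, and 13 rose and 3 fell against VB6 day 5. Fn1, fibronectin, rose by 1.35 uncorrected and 1.06 corrected, and Bgn, the small proteoglycan biglycan, by 2.66 and 2.38. Dcn and Eln, for decorin and elastin of mature connective tissue, stayed low and were not called. Basement membrane genes, which endoderm also secretes, gave 12 rises of 14 uncorrected and 7 rises with 1 fall against VB6 day 5. Col4a1, a chain of basement membrane collagen, was at 1552, 1281 and 1316 CPM at day 7 and 382, 316 and 307 CPM at day 5, 2.05 ± 0.12 uncorrected, 1.60 ± 0.09 corrected and 0.69 ± 0.11 against VB6 day 5.

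Of 18 mesoderm regulators tested (of 22 listed), 17 rose and none fell uncorrected, 15 rose and 1 fell corrected, and 15 rose and 1 fell against VB6 day 5; the medians were 2.05, 1.88 and 1.52. Hand1, a factor of lateral and extraembryonic mesoderm, was at 19.6, 12.3 and 17.1 CPM at day 7 and 1.30, 1.61 and 1.46 CPM at day 5, a log2 change of 3.49 ± 0.20 uncorrected and 2.76 ± 0.17 corrected (edgeR, adjusted p = 5.83e-13 and 5.43e-13). Msx2, a homeobox target of BMP signalling, rose by 2.75, Meis2, a cofactor of Hox proteins, by 2.48, and Snai1, the repressor of E-cadherin, by 2.24 uncorrected and 1.42 corrected. Tcf15, a factor of somite and epiblast, was not called uncorrected (-0.10 ± 0.20) and fell corrected (-1.41 ± 0.20). All 11 mesenchymal genes tested (of 12 listed) rose, 10 of 11 corrected and 10 of 11 against VB6 day 5. Cdh11, the cadherin of mesenchyme, was at 11.6, 10.9 and 10.8 CPM at day 7 and 0.810, 0.806 and 0.336 CPM at day 5, and rose by 4.08 ± 0.25. Axl, a receptor tyrosine kinase, rose by 1.81.

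Epithelial cadherin moved against them. Cdh1, E-cadherin (chr8:106603351-106670246), was at 440.4, 425 and 435 CPM at day 7 and 706, 702 and 748 CPM at day 5, and every day 7 library was below every day 5 library. Its log2 fold change was -0.73 uncorrected and -1.07 corrected, while Cdh2, N-cadherin, rose by 0.28 and 0.64 (edgeR, adjusted p of Cdh2 = 0.0214 uncorrected). That call of Cdh2 was lost without vehicle day 5 replicate 1 (0.24) or vehicle day 7 replicate 2 (0.23), and in limma on the deposited TPM (0.02). Cdh6 and Pcdh7, adhesion proteins of kidney, neural and mesenchymal progenitors, rose by 2.56 ± 0.10 and 2.96 ± 0.13, and Pcdh18 by 2.68. Esrp1, the splicing factor of epithelia, fell by 1.07, although Krt8 and Krt18 of the same epithelial list rose. Over the whole epithelial list of 19, 12 rose and 4 fell uncorrected and 7 rose and 11 fell corrected, so the direction of its majority depended on the correction.

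Of 19 smooth muscle and actin fibre genes tested (of 20 listed), 18 rose and none fell uncorrected, 16 rose and 2 fell corrected, and 12 rose and 3 fell against VB6 day 5. Acta2, smooth muscle actin, was at 158, 182 and 208 CPM at day 7 and 11.7, 14.4 and 14.9 CPM at day 5, with log2 fold changes of 3.74 ± 0.12 uncorrected, 3.63 ± 0.11 corrected and 2.26 ± 0.11 against VB6 day 5. Tpm1 and Tpm2, tropomyosins of the thin filament, rose by 1.002 and 1.83 uncorrected and 0.76 and 1.13 corrected. Flna, the actin crosslinker filamin A, was not called uncorrected (0.11 ± 0.07) and fell corrected (-0.25 ± 0.05). The blood vessel and blood list behaved differently: of 17 tested (of 24 listed), 5 rose and 7 fell uncorrected and 3 rose and 9 fell of 16 corrected. Kdr, a receptor for VEGF of early mesoderm and endothelium, was low and rose, with 3.82, 2.69 and 2.82 CPM at day 7 and 0.594, 0.403 and 0.224 CPM at day 5. Eng, an endothelial co-receptor that ES cells also express, fell by 0.98, and Pecam1, likewise expressed in ES cells at a mean of 103 CPM, fell by 0.74. Hbb-bh1, an embryonic globin gene, was at 0 in both groups.

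All 10 BMP target genes rose uncorrected, corrected and against VB6 day 5, with medians of 1.34, 1.07 and 0.86. Id3, which blocks differentiation factors of the bHLH class and is induced by BMP, was at 162, 151 and 159.9 CPM at day 7 and 26.2, 24.0 and 26.3 CPM at day 5, a log2 change of 2.63 ± 0.07 uncorrected and 1.99 ± 0.06 corrected (edgeR, adjusted p = 1.03e-17 and 2.64e-18). Id1 rose by 1.99 uncorrected and 1.30 corrected, and Id2 by 0.96 and 0.99. Among the ligands, Bmp4 was at 43.5, 31.2 and 37.2 CPM at day 7 and 3.35, 3.86 and 3.86 CPM at day 5 (3.34 ± 0.19), and Bmp7 rose by 1.86. Among the secreted inhibitors, Nog, which binds BMP4, was at 16.7, 14.8 and 16.2 CPM at day 7 and 0.594, 0.288 and 0.504 CPM at day 5 (5.08 ± 0.27 uncorrected, 4.49 ± 0.26 corrected), and Grem1 was at 4.21, 4.09 and 4.51 CPM and 0.270, 0.115 and 0.0559 CPM. Not all such genes rose. Of 14 BMP ligands and receptors, 9 rose and 4 fell uncorrected and 9 rose and 3 fell corrected, and of 8 BMP inhibitors tested (of 10 listed), 5 rose and 1 fell uncorrected and 4 rose and 2 fell corrected.

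Neural and neural crest genes rose from low levels and did so unevenly. Of 20 neural ectoderm genes tested (of 24 listed), 13 rose and 6 fell uncorrected, 10 rose and 6 fell of 19 corrected, and 12 rose and 7 fell against VB6 day 5. Sox1, the earliest factor restricted to neural plate (chr8:12395295-12400126), was at 41.8, 33.1 and 33.3 CPM at day 7 and 1.998, 1.96 and 1.62 CPM at day 5, a log2 change of 4.27 ± 0.18 uncorrected and 3.74 ± 0.16 corrected (edgeR, adjusted p = 6.75e-15 and 7.12e-16). Pax6, a factor of forebrain and eye, was at 9.97, 7.59 and 11.2 CPM at day 7 and 1.30, 1.27 and 1.90 CPM at day 5, and Irx3, of the caudal neural tube, at 31.9, 20.8 and 24.8 CPM and 1.46, 1.15 and 1.68 CPM. The groups stood apart in all 3 genes. Map2, a microtubule protein of neurons, fell by 1.87, with 6.31, 6.01 and 6.37 CPM at day 7 and 23.6, 24.5 and 20.3 CPM at day 5. Dmrta2, a factor of the cortical hem, and Mab21l2, of eye and midbrain, were among the 12 largest rises, at 4.64 ± 0.27 and 4.71 ± 0.35 uncorrected and 3.57 ± 0.25 and 4.68 ± 0.34 corrected.

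Of 12 neural crest genes, all tested, 11 rose and 1 fell uncorrected 9 rose and 1 fell corrected, and 8 rose and 1 fell against VB6 day 5. Pax3, a factor of dorsal neural tube, crest and somite, was at 7.86, 7.00 and 9.53 CPM at day 7 and 0.486, 0.288 and 0.112 CPM at day 5 (4.74 ± 0.34), and Tfap2a, a crest and surface ectoderm factor, was at 10.4, 12.02 and 11.96 CPM and 2.75, 1.96 and 1.96 CPM (2.36 ± 0.21). Foxd3, which crest shares with the epiblast, was the gene that fell, with 1.38, 0.992 and 1.07 CPM at day 7 and 6.10, 7.08 and 7.27 CPM at day 5, a log2 fold change of -2.56 uncorrected and -3.65 corrected. Wnt1, the signal of the dorsal midbrain and roof plate, was noticed after its values were seen. It had 1.75 to 2.71 CPM in the vehicle day 7 libraries and no count in any vehicle day 5, VB6 day 5, vehicle day 3 or ES library, where 3 counts in a vehicle day 5 library amount to 0.164 to 0.172 CPM. The VB6 day 7 libraries held it too, at 1.91 to 4.46 CPM.

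**Figure D5:**
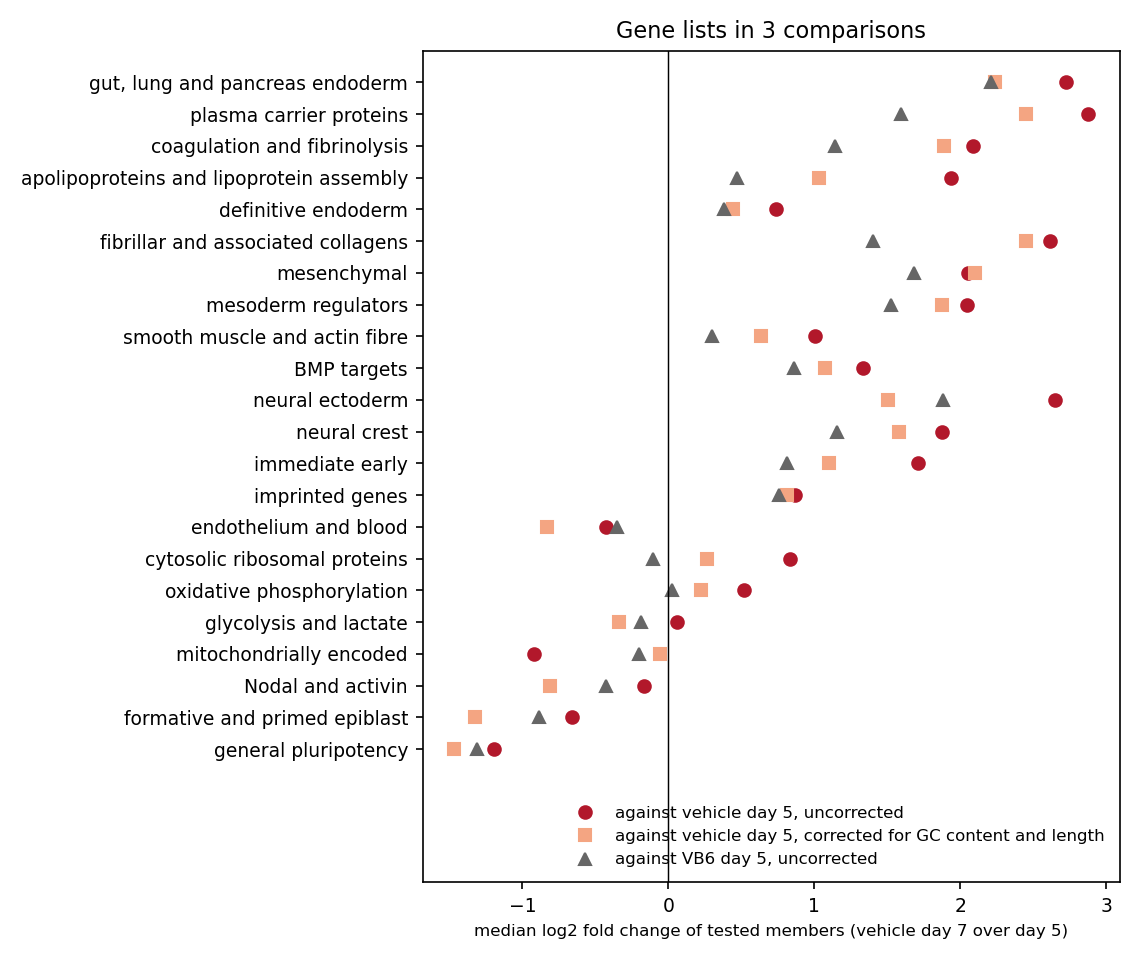
Median log2 fold change of the tested members of 22 gene lists for vehicle day 7 over vehicle day 5, uncorrected (circles) and corrected (squares), and over VB6 day 5 (triangles). Collagen, mesoderm, plasma protein and gut lists lie right of 0 in all 3 comparisons and the general pluripotency list left of 0 in all 3, while cytosolic ribosomal proteins are at 0.83, 0.26 and -0.10.

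Imprinted and growth factor genes included some of the largest gains by abundance. Of 19 imprinted genes tested (of 20 listed), 15 rose and 3 fell uncorrected, 12 rose and 3 fell corrected and 13 rose and 2 fell against VB6 day 5. Igf2, the fetal growth factor expressed from the paternal copy (chr7:142650766-142666816), was at 1436, 1223 and 1494 CPM at day 7 and 168, 139 and 138 CPM at day 5. H19, the neighbouring noncoding RNA expressed from the maternal copy (chr7:142575529-142578143), was at 1288, 1203 and 1223 CPM and 306, 278 and 269 CPM. Both were higher in every day 7 library, by 3.22 ± 0.10 for Igf2 and 2.12 ± 0.07 for H19 uncorrected and 2.75 ± 0.08 and 1.64 ± 0.07 corrected (edgeR, largest adjusted p = 2.36e-16). Igf2 averaged 7.31 CPM in ES cells and 23.6 at day 3. Cdkn1c, the maternally expressed inhibitor of the cell cycle, rose by 2.57 uncorrected and 1.65 corrected, and Peg3 and Peg10, paternally expressed, by 1.07 and 1.14. Rtl1 was not called.

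Of 16 growth factor genes tested (of 18 listed), 12 rose and 2 fell uncorrected and 13 rose and 2 fell corrected. Igfbp4 and Igfbp2, which bind the insulin-like growth factors in the medium, rose by 2.19 and 1.86 uncorrected, 1.65 and 1.02 corrected, and 1.49 and 0.36 against VB6 day 5. Cxcl12, the chemokine that guides migrating mesoderm and germ cells, fell, with 11.5, 12.2 and 12.4 CPM at day 7 and 45.8, 47.1 and 53.7 CPM at day 5, a log2 change of -2.02 ± 0.12 (edgeR, adjusted p = 9.09e-13). All 18 immediate early genes tested (of 19 listed) rose uncorrected, 16 of 18 corrected and 17 of 18 against VB6 day 5. Junb, an AP-1 subunit, was at 124, 95.0 and 108 CPM at day 7 and 14.1, 16.5 and 16.4 CPM at day 5 (2.79 ± 0.12 uncorrected, 1.80 ± 0.07 corrected), and Atf3, a stress-induced factor, at 43.2, 44.1 and 44.8 CPM and 7.56, 6.74 and 6.60 CPM (2.66 ± 0.12). Cdkn1a, the p21 inhibitor of the cell cycle, was at 193, 186 and 184 CPM at day 7 and 48.7, 46.0 and 49.9 CPM at day 5, a rise of 1.96 ± 0.06, and Cdkn2a rose by 2.43 uncorrected and 1.48 corrected.

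The lists of basic metabolism and translation are where the comparisons parted. Of 35 cytosolic ribosomal protein genes, 33 rose and 1 fell uncorrected and 27 rose and 2 fell corrected, but none rose and 5 fell against VB6 day 5. The medians were 0.83, 0.26 and -0.10. Rps2, of the small subunit, was at 2213, 2326 and 2215 CPM at day 7 and 1007, 981 and 1153 CPM at day 5, with 1.10 ± 0.07 uncorrected and 0.36 ± 0.05 corrected. The VB6 day 5 mean was 2466 CPM and the vehicle day 3 mean 2392 CPM, both near the day 7 values. Of 30 nuclear genes of oxidative phosphorylation, 24 rose and 2 fell uncorrected, 17 rose and 4 fell corrected, and none rose and 4 fell against VB6 day 5. Of the 13 protein genes of the mitochondrial genome, 9 fell and 1 rose uncorrected, 6 fell and 2 rose corrected, and 3 fell against VB6 day 5, with medians of -0.92, -0.06 and -0.20. mt-Co1, a subunit of cytochrome c oxidase, was at 11395, 13126 and 13379.5 CPM at day 7 and 27217, 27661 and 25200.0 CPM at day 5, with log2 values of -1.08 ± 0.08, -0.43 ± 0.05 and -0.10 ± 0.08 in the 3 comparisons. The short fragments of the vehicle day 5 libraries move with these lists, and their part in the result was not tested.

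Glycolysis was also unsettled. Of 22 genes, 9 rose and 8 fell uncorrected, 3 rose and 14 fell corrected, 1 rose and 14 fell in limma on the deposited TPM, and 1 rose and 12 fell against VB6 day 5. The uncorrected counts lie near the 35.2% and 31.1% of all genes. Corrected, 30.0% of all genes rose and 32.5% fell, and against VB6 day 5 17.3% rose and 16.5% fell. Pdk1, which holds pyruvate back from the mitochondria, fell in each, with 112, 126 and 108 CPM at day 7 and 293, 311 and 314 CPM at day 5 and log2 values of -1.40 ± 0.06, -1.27 ± 0.05 and -0.87 ± 0.06. Ldhb, a lactate dehydrogenase, fell in each as well, with -0.80, -1.25 and -1.07. Ldha, the other main lactate dehydrogenase, was at 1738, 1705 and 1598 CPM at day 7 and 1459, 1540.1 and 1626 CPM at day 5, which overlapped, with 0.12 ± 0.05 uncorrected, -0.20 ± 0.04 corrected and 0.02 ± 0.05 against VB6 day 5; the uncorrected call was lost without replicate 1 or 2 of either day, with 0.09 to 0.12 (edgeR, adjusted p = 0.0595 to 0.156), and in DESeq2. Gapdh turned direction between the fits, with 0.21 ± 0.06 and -0.49 ± 0.04, as did the elongation factor gene Eef2 (0.44 ± 0.08 and -0.14 ± 0.04) and, the other way, the nucleolar gene Npm1 (-0.43 ± 0.05 and 0.17 ± 0.05). The majority of ribosome assembly genes fell in all 3: of 18, 10 fell and 4 rose uncorrected, 13 fell and 1 rose corrected, and 17 fell against VB6 day 5. Dkc1, the pseudouridine synthase dyskerin, was at 104, 106 and 104 CPM at day 7 and 221, 233 and 236 CPM at day 5, a log2 change of -1.14 ± 0.06, and Ncl, nucleolin, fell by 0.56.

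Outside the lists, the largest falls among protein-coding genes reaching 10 CPM were led by Myb. Myb, a factor of immature blood and epithelial progenitors (chr10:21124935-21160984), was at 1.83, 2.69 and 1.52 CPM at day 7 and 34.6, 38.6 and 35.5 CPM at day 5, the largest fall, with -4.17 ± 0.17 uncorrected and -3.91 ± 0.16 corrected (edgeR, adjusted p = 1.66e-15 and 2.75e-16). Bcl11a, a repressor of early globin genes, was at 0.941, 1.52 and 0.790 CPM and 9.23, 11.6 and 13.8 CPM. Calcr, the calcitonin receptor, was at 1.22, 2.10 and 1.75 CPM and 14.3, 16.5 and 16.2 CPM. In each of the 3 genes the day 5 mean stood above that of ES cells, at 6.74, 0.715 and 0.0872 CPM, and the groups did not overlap. Cmah, an enzyme that modifies sialic acid, fell by 2.83, and Nopchap1, a chaperone of ribonucleoprotein assembly, was at 454, 578 and 510.2 CPM at day 7 and 3292, 3484 and 2926 CPM at day 5, with -2.65 ± 0.11 uncorrected and -1.07 ± 0.11 against VB6 day 5. The effective length of Nopchap1 was 122909 nt, the highest among the genes binned by length, so its CPM does not reflect a high transcript level. In length-scaled units it averaged 5.46 TPM at day 7 and 41.5 TPM at day 5. Zfp600, Zfp978, Zfp988 and Zfp989 were among the 12 largest falls too, but they belong to a family of near-identical zinc-finger genes and are reported as uncertain. Among the largest rises not yet named, Tmem132c rose by 5.74, S100g, a vitamin D-dependent calcium-binding protein, by 5.11, and Pmp22, a myelin and growth-arrest protein, by 4.42.

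Some near-identical gene copies differed strongly one by one, while their sums differed less. Srp54b, of the signal recognition particle, topped the list of rises, at 34.0 ± 5.89 CPM at day 7 and 0.309 ± 0.345 CPM at day 5, but the sum over Srp54a, Srp54b and Srp54c was 168 ± 12.9 CPM at day 7 and 186 ± 4.56 CPM at day 5 (SD, n = 3 each). Rnaset2b fell to 1.78 ± 0.427 CPM at day 7, against 13.2 ± 1.10 CPM at day 5, while Rnaset2a and Rnaset2b together were at 28.8 ± 0.698 and 28.3 ± 0.880 CPM. Rpl15-ps3, a processed copy of the ribosomal protein gene Rpl15, had no count at day 7 and 344 ± 43.7 CPM at day 5, and the sum with Rpl15 was 826 ± 65.2 and 917 ± 64.4 CPM. These sums were added after the values were seen. In the VB6 day 7 libraries, Srp54b was at 0.431 ± 0.462 CPM, Rnaset2b at 7.54 ± 1.18 CPM and Rpl15-ps3 at 200.5 ± 42.3 CPM. Of genes with no count in any vehicle day 5 library and at least 1 CPM at day 7 there were 22, 6 of them protein-coding, and of the reverse there were 19, none protein-coding and 15 pseudogenes. The 22 include Wnt1, Tlx1, Fezf1 and Myh2, which are not near-identical copies. Of the 22, 20 had counts in VB6 day 5 and 20 in vehicle day 3, and of the 19, 4 and 6 did. Gene-level values of near-identical copies are uncertain, since the deposited counts are estimates, of which 28.49% of those above 0 were not whole.

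Markers of each cell type were summed in TPM, the length-scaled share of transcripts. Embryonic stem cell markers summed to 215.5 to 259.7 TPM at day 7 and 579 to 606 TPM at day 5, against 2131 to 2659 TPM in ES cells. Of these 6 markers, 3 fell and 2, Sox2 and Klf4, rose in both fits. Pou5f1 weighed most in the sum, averaging 94.3 TPM at day 7 and 386 TPM at day 5. Visceral endoderm and liver markers summed to 2289 to 2393 TPM at day 7 and 338 to 429 TPM at day 5, and definitive endoderm markers to 123 to 147 TPM and 64.4 to 76.6 TPM. Fibroblast markers summed to 108 to 157 TPM at day 7 and 3.85 to 4.90 TPM at day 5, with Lum at 0 on day 5, and smooth muscle markers to 374 to 472 TPM and 173 to 185 TPM. In these 5 lists the ranges of the days did not overlap, and the VB6 day 5 ranges did not overlap those of day 7 either. Mesoderm markers summed to 39.6 to 46.3 TPM at day 7 and 15.4 to 17.7 TPM at day 5. Neural ectoderm markers summed to 33.3 to 38.4 TPM at day 7 and 25.9 to 30.3 TPM at day 5, but the VB6 day 5 range, 31.5 to 41.9 TPM, spanned that of day 7. Of these 4 markers, 3 rose and 1 fell uncorrected, and 2 rose and 1 fell corrected. Neural crest markers summed to 7.82 to 8.91 TPM at day 7, 1.58 to 2.44 TPM at day 5 and 1.51 to 2.12 TPM in VB6 day 5. Cardiac muscle markers overlapped, at 11.1 to 12.5 TPM and 9.49 to 11.4 TPM, and endothelial markers were lower, at 2.42 to 3.28 TPM and 4.52 to 5.09 TPM. Blood markers summed to 0.890 to 1.23 TPM at day 7 and 1.29 to 2.19 TPM at day 5. Trophoblast markers, none of which could be tested, summed to 0.27 to 0.62 TPM and 0.05 to 0.49 TPM. The part of cell makeup in the single-gene results was not tested.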

How the data were processed

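RNA-seq of 6 libraries was compared, with the other 15 in the same fit. The authors deposited expected counts per gene, not normalized, and also TPM and FPKM, for 78317 gene rows. Per the submitters' processing notes the build was mm10, and the sources used here name neither aligner nor counting program. The labels name TRIzol total RNA, although the protocol also mentions small RNA, so the library preparation is uncertain. Expected counts were rounded, which changed the total by 0.000245%, and tested as the design had laid down for counts. The 18901 genes passing filterByExpr were fitted over all 21 libraries with edgeR 4.0.16 in R 4.3.3 (TMM, glmQLFit, glmQLFTest, and glmTreat for a minimum fold of 2), with Benjamini-Hochberg adjustment over all genes tested. An SE is the absolute log2 fold change divided by the square root of F.

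The correction entered, as an offset per library, a robust spline with 5 degrees of freedom each over GC content and effective length, fitted on genes averaging 1 CPM or more. Effective lengths were derived from the deposited counts and FPKM, and fragment lengths from annotated minus effective length over 578 genes. Positions and GC content came from GENCODE M21 (mm10), which lacks 26781 of the gene IDs, with 1.9% of counts. Alternatives were DESeq2 1.42.0 and its size factors, other filters, other forms of the correction, a replicate block, the 6 libraries alone, each library left out, limma 3.58.1 on log2(TPM + 0.5), and VB6 day 5 or vehicle day 3 in place of vehicle day 5. Floors cover counting error only, while ± values are SEs of the fits or SDs over 3 libraries and include the spread between libraries.

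The comparison and the 70 gene lists (952 of 1047 genes tested) were chosen with earlier results of these data known, so list counts are descriptions. The genes named are the 12 largest rises and 12 largest falls among protein-coding genes called beyond 2-fold alike in both fits, not overlapping, and reaching 10 CPM; per list up to 4 called members of smallest p and 2 uncalled ones of highest CPM; a set of lineage genes; the abundant genes called in opposite directions by the 2 fits; the 8 largest gains and losses in CPM; and genes with no count in 1 group. Not every gene so chosen is printed. Promoters came from RefSeq (GRCm38.p6), which held 289 of 411 genes looked up. Libraries within a group gave chi-square values per gene of 2.77 to 7.81, above counting noise, so none was treated as a repeat.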

Additional observations from a re-analysis of the deposited data

How the results depend on the processing

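Of 154 genes named, 148 kept their direction and their side of the threshold whichever of the 6 libraries was left out. Beside Cdh2 and Ldha, the others gained a call: Col5a3 without vehicle day 7 replicate 1 (-0.77) or vehicle day 5 replicate 2 (-0.68), Dcn without vehicle day 7 replicate 2 (-2.10), Eln without vehicle day 5 replicate 3 (0.85), and Rtl1 without vehicle day 7 replicate 3 (0.47) or vehicle day 5 replicate 2 (0.57). Leaving 1 out gave 11665 to 11988 genes called, 6280 to 6422 higher and 5385 to 5580 lower, and beyond 2-fold 1903 to 2184, 1088 to 1238 higher and 815 to 946 lower. Samples with the same replicate number did not deviate together (correlations of -0.025, -0.030 and -0.067, against -0.026 to 0.059 for other pairs). Such values cannot tell whether they stem from a shared culture. With a replicate block, 12429 genes were called and 2260 beyond 2-fold, and with the replicate block and the correction together 10270 and 1243, with 555 higher beyond 2-fold. The replicate block changed no call of a gene named.

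Counts beyond 2-fold, 2277 uncorrected, moved most. Corrected for GC content and length they were 1260, with 561 higher. With annotated length in the correction they were 1313 and 622, and over GC content alone 1301 and 608. DESeq2 gave 1428, 815 higher and 613 lower, and limma on log2(TPM + 0.5) gave 1101, 467 higher and 634 lower, and 4351 higher at the plain threshold. With VB6 day 5 in place of vehicle day 5 they were 483, 268 higher and 215 lower, and the plain counts 6373, 3262 higher and 3111 lower. With vehicle day 3 they were 3845, 1966 higher and 1879 lower, over a longer gap.

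Some directions turned, and the cause was not tested. Corrected, with and without the block, they were Eef2 at -0.14, Gapdh at -0.49, Gata6 at -0.31, Ldha at -0.20 and Npm1 at 0.17. With annotated length they were Eef2 at -0.21, Gapdh at -0.37, Gata6 at -0.39, Hnf4a at -0.04, Ldha at -0.17 and Npm1 at 0.24. With GC content alone they were Eef2 at -0.18, Gapdh at -0.33, Gata6 at -0.36, Hnf4a at -0.01, Ldha at -0.13 and Npm1 at 0.29. On TPM, Gapdh was at -0.31 and Ldha at -0.62. Against VB6 day 5, Eef2 was at -0.19, Gapdh at -0.17, Hnf4a at -0.10, Rps2 at -0.13, Sox2 at -0.36 and Rnaset2b at 0.01. Against vehicle day 3, Gapdh was at -0.54, Ldha at -0.44, Rps2 at -0.09 and Sox2 at -1.06. At these depths 3 counts in a library amount to 0.164 to 0.176 CPM, which limits what can be said of the rarest genes.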

Other observations

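Several signalling and tissue lists not described above also held large changes. Of 18 Wnt ligands and receptors, 12 rose and 4 fell uncorrected and 10 rose and 4 fell corrected. Fzd2, a Wnt receptor, was at 173, 129.9 and 140.1 CPM at day 7 and 34.9, 37.9 and 38.9 CPM at day 5, a log2 change of 1.99 ± 0.12, and Wnt6, a ligand, at 4.60, 3.79 and 3.10 CPM and 0.216, 0.403 and 0.448 CPM. Frzb, a secreted Wnt antagonist, was at 52.9, 42.7 and 51.8 CPM at day 7 and 3.56, 2.99 and 3.36 CPM at day 5 (3.89 ± 0.16 uncorrected, 3.99 ± 0.15 corrected; edgeR, adjusted p = 3.04e-15 and 5.41e-17), whereas Tcf7, a nuclear effector and target of the pathway, fell by 1.17. In both genes the libraries of the days stood apart. Of 13 retinoid genes, 10 rose and none fell uncorrected and 7 rose and 2 fell corrected. The binding proteins Crabp1 and Crabp2, which carry retinoic acid in the cell, rose by 2.92 ± 0.21 and 1.90 ± 0.17 uncorrected and 2.07 ± 0.20 and 1.36 ± 0.15 corrected, while Cyp26a1, which degrades retinoic acid, had 57.6, 54.4 and 48.6 CPM at day 7 and 57.2, 50.6 and 51.0 CPM at day 5 and was not called uncorrected but fell corrected, at -0.76. Of 13 hedgehog genes, 9 rose and 2 fell uncorrected, 4 rose and 2 fell of 11 corrected, a share near the 30.0% of all genes, and 9 rose and 1 fell against VB6 day 5. The co-receptor gene Gas1 rose by 2.18 ± 0.16 uncorrected and 1.09 ± 0.11 corrected.

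Of 16 cardiac muscle genes tested, 9 rose and none fell uncorrected and 8 rose and 3 fell of 14 corrected. Myh7, the slow myosin heavy chain, was at 22.0, 20.7 and 23.9 CPM at day 7 and 1.13, 1.44 and 1.62 CPM at day 5, a log2 change of 3.98 ± 0.22 (edgeR, adjusted p = 4.43e-13). Actc1, cardiac actin, was at 4.93, 6.65 and 5.64 CPM and 5.40, 4.95 and 4.64 CPM and was not called. Of 18 lysosomal genes, 14 rose and 2 fell uncorrected, 11 rose and 2 fell corrected, and 11 rose and none fell against VB6 day 5, and the protease gene Ctsh rose by 1.45 ± 0.09. Of 14 iron and metal genes tested (of 15 listed), 5 rose and 6 fell uncorrected, beside 35.2% and 31.1% of all genes. Corrected, 5 rose and 9 fell. The iron uptake genes Tfrc and Steap3 fell: Tfrc, the transferrin receptor, was at 173, 186 and 177 CPM at day 7 and 427, 471 and 477 CPM at day 5, and Steap3, an iron reductase, at 4.82, 4.61 and 3.38 CPM and 12.5, 14.1 and 14.9 CPM, with log2 fold changes of -1.36 ± 0.08 and -1.69 ± 0.13. Of 10 DNA methylation enzyme genes, 4 rose and 6 fell uncorrected, and 3 rose and 6 fell corrected. Tet1, which oxidises methylated cytosine, fell by 1.39. Of 10 genes of vitamin B6 handling, 3 rose and 4 fell uncorrected, near the 35.2% and 31.1% of all genes. Corrected, 1 rose and 6 fell, beside 30.0% and 32.5% of all genes, and no member passed beyond 2-fold in either fit. Pdxk, pyridoxal kinase, was at -0.13 ± 0.08 uncorrected, where it was not called, and -0.50 ± 0.08 corrected.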
